A study of Mus musculus with 6 samples.

Results

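The 42 genes described here are interferon-stimulated genes and sensors of foreign or unmodified RNA, chosen by gene symbol from the RNA-seq tables of mouse liver. All 42 had counts in these livers, among 18419 genes with a count in any library, and all 42 were among the 13431 genes with enough counts to be tested. The study asked what loss of Mettl14, a subunit of the complex that writes m6A on RNA, does to the liver in obesity. Livers came from 6 Mettl14f/f mice that went onto a high-fat diet (HFD) at 8 weeks of age, received a vector after 10 weeks of it and were sampled 8 weeks later. AAV8-TBG-Cre was given to 3 mice and AAV8-TBG-GFP, the control, to 3 others. Both vectors are adeno-associated viruses whose promoter is active in hepatocytes, so Cre could recombine the floxed alleles in hepatocytes and not, by design, in the other liver cells. All 6 mice shared the floxed alleles, the HFD and an AAV8 vector, while AAV8-TBG-Cre was bought and the control vector, by the study's methods, was made in the laboratory. An effect of the vector preparation, of Cre or of GFP cannot be told apart from loss of Mettl14. The genotype labels call the groups WT and METTL14 KO.

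Interferons are secreted proteins that signal through Jak and Stat proteins to switch on interferon-stimulated genes, many of which block viruses. RNA sensors such as Ifih1 (MDA5) and Ddx58 (RIG-I) start that response when they bind double-stranded or unmodified RNA. The m6A mark is among the features known to keep a cell's own RNA from being sensed, and Adar edits double-stranded RNA with the same outcome.

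Each library held between 20356440 and 21010508 expected counts, and levels are given as CPM, the count scaled by library size after TMM normalisation. With AAV8-TBG-Cre Mettl14 itself was at 4.96, 5.38 and 4.86 CPM, and with AAV8-TBG-GFP at 6.30, 6.43 and 5.81 CPM. The log2 fold change of Mettl14 was -0.29 (SE 0.15, edgeR adjusted p = 0.337). The exact two-sided permutation test gave p = 0.1, the smallest that 3 mice against 3 allow. Counts cover the entire transcript, which leaves loss of the floxed exon unchecked, and the groups are called here by their labels. The study itself reported less METTL14 protein and less total RNA m6A in livers of HFD males given AAV8-TBG-Cre, sampled sooner after the vector. The hepatocyte markers (Alb, Apoa1, Ttr, Serpina1c, Cps1 and Hnf4a) summed to 91975 to 108398 CPM with AAV8-TBG-GFP. With AAV8-TBG-Cre they summed to 73469 to 95683 CPM, with overlap, and most of each sum was Alb. Ttr was lower (log2 fold change -0.57, edgeR adjusted p = 0.194) and Cps1 higher (0.74, edgeR adjusted p = 0.177), both without overlap of the groups. One feature of the labels has no explanation in the sources used here: the library name has 2 digits for the first control liver, the second control liver and the first AAV8-TBG-Cre liver, and 4 digits for the other 3 livers.

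No member passed an edgeR adjusted p of 0.05 in either direction, a level that 0.484% of all genes tested passed as higher and 0.447% as lower with AAV8-TBG-Cre. At the threshold of the study, an unadjusted p under 0.05 with a fold change of at least 1.2, 8 members (19.0%) were higher with AAV8-TBG-Cre, against 12% of all genes tested. These were the transcription factors Irf1, Irf5 and Irf8, the oligoadenylate synthetase family members Oas1a, Oas2 and Oasl2, the virus tether Bst2, and Ifi27. Only Dhx58 (2.38% of the members) was lower, against 8.41% of all genes. The same 8 members had every AAV8-TBG-Cre liver above every AAV8-TBG-GFP liver, a pattern that 14% of all genes showed. Dhx58 and Ifi35 had every AAV8-TBG-Cre liver below, against 13% of all genes. DESeq2 called 5 members higher by its adjusted p (Irf5, Irf8, Oas2, Oasl2 and Ifi27), where it called 4.81% of 15559 genes. With limma on log2(FPKM + 1) 0 members passed the adjusted p, and 9 were higher and 0 lower at the unadjusted threshold. For limma the shares of all genes were not computed, so its counts have nothing to be read against. The log2 fold change was positive in 22 of the 42 members with a median of 0.02, beside 49.0% of all genes and a median of -0.01. On log2(FPKM + 1), a scale that moved the median of all genes by 0.11, 33 members were positive and 25 were above that shift. The called genes came from 5 of the 8 groups by role. RNA of bulk tissue cannot separate fewer cells of a type from less RNA per cell.

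**Figure D1:**
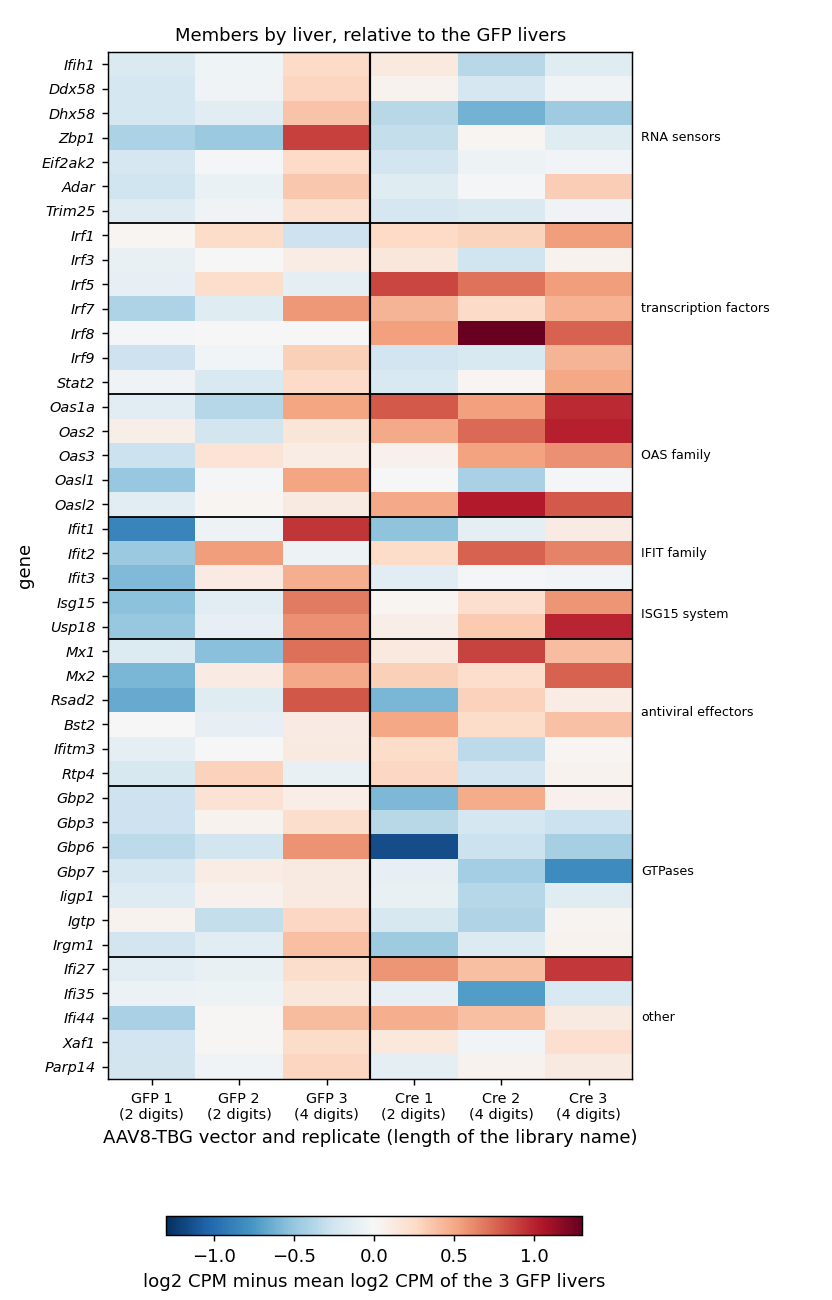
Each row is a member and each column a liver, coloured by log2 CPM minus the mean log2 CPM of the 3 AAV8-TBG-GFP livers, with black lines between groups by role. Irf5, Irf8, Oas1a, Oas2, Oasl2 and Ifi27 are red in all 3 AAV8-TBG-Cre livers, while all 7 genes grouped as RNA sensors are highest in AAV8-TBG-GFP replicate 3.

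**Figure D2:**
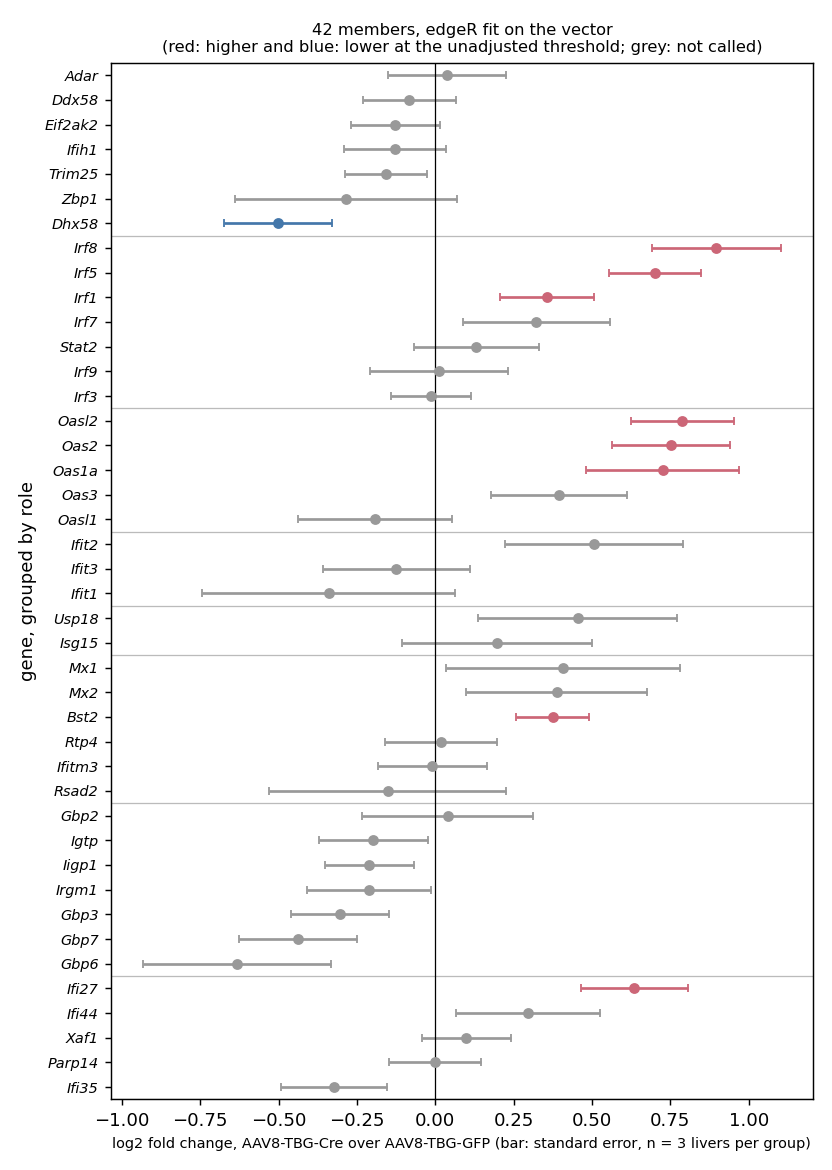
The log2 fold change of each member, AAV8-TBG-Cre over AAV8-TBG-GFP, is plotted with its standard error (n = 3 livers per group) and ordered within each group by role. The 8 red members lie between 0.36 and 0.90, and Dhx58, in blue, lies at -0.50.

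The members differed widely in level, which is compared between genes as FPKM because that unit accounts for length. In the AAV8-TBG-GFP livers the most abundant was Ifitm3, a membrane protein that blocks virus entry, at 620 ± 31.6 FPKM (SD, n = 3). Iigp1, an immunity-related GTPase, followed at 125 ± 9.68 FPKM, and Bst2 at 94.8 ± 5.48 FPKM. Mx1, an antiviral GTPase, was lowest at 0.72 ± 0.329 FPKM, and 71.0% to 93.1% of the Mx1 count in each liver went to a RefSeq transcript that is annotated as non-coding. All of the Mx2 count in each liver also went to a transcript annotated as non-coding.

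The promoters of these genes were searched for elements of the interferon response. Of the 42 members 31 matched a RefSeq window running from 250 bases before to 50 bases after the start of the gene (GRCm38.p6). Oas2, Mx1, Mx2, Usp18, Ifi27, Dhx58, Gbp6, Iigp1, Rtp4, Parp14 and Zbp1 had no window. The interferon-stimulated response element, which the complex that holds Stat2 and Irf9 binds, was searched on both strands by its core, GAAA followed by any 2 bases and GAAA again. The core was in 17 of the 31 windows (54.8%) and in 3.99% of the windows of 27025 genes. The gamma-activated site, an element of the interferon-γ response, was searched as TTC, any 3 bases and GAA, which reads the same on both strands. This site was in 11 of 31 windows (35.5%) and in 9.55% of all windows. Because the members were chosen as interferon-stimulated genes and RNA sensors, shares above those of all windows are no separate result. The stretches printed here are from before the start of each gene, 5′ to 3′ on the strand of the gene, with every match in capitals, of the core in the first 5 and of the gamma-activated site in Irf8 and Irf1. The Ifit1 and Rsad2 matches lie on the opposite strand. Isg15 (chr4:156200835-156200936, minus strand), Ifit1 (chr19:34640745-34640853, plus strand) and Rsad2 (chr12:26456523-26456612, minus strand) are shown as classical members with the core. Oas1a (chr5:120907526-120907585, minus strand) and Bst2 (chr8:71537547-71537642, minus strand) have the core and were higher with AAV8-TBG-Cre, while Irf8 (chr8:120736147-120736253, plus strand) and Irf1 (chr11:53769884-53769972, plus strand) are shown for the gamma-activated site.
Isg15: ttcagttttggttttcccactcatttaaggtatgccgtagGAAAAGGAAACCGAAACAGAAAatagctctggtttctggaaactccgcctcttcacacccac
Ifit1: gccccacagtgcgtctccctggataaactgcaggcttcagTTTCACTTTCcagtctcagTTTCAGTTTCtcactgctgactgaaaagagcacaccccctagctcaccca
Rsad2: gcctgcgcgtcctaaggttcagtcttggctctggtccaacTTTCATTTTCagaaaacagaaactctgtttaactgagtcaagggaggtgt
Oas1a: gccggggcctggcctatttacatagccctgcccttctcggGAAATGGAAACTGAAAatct
Bst2: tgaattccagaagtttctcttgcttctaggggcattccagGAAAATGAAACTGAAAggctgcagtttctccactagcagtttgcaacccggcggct
Irf8: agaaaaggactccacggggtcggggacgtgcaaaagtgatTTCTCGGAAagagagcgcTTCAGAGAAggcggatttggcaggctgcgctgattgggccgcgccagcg
Irf1: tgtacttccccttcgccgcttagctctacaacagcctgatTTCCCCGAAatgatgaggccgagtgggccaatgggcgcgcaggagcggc
A match describes these letters and not binding. Isg15 had 3 overlapping matches of the core, and Oas1a and Bst2 had 2 overlapping matches each. Oas1a and Bst2 also held the gamma-activated site, with its first base at -98 and -136 from the start of the gene. That site lies outside the stretch printed for Oas1a and is not marked as such in Bst2.

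None of the 7 genes grouped here as RNA sensors was called higher with AAV8-TBG-Cre, beside 12% of all genes. The OAS family, which also senses double-stranded RNA, is given separately below. Ifih1, which senses long double-stranded RNA, was at 44.5, 48.9 and 60.2 CPM with AAV8-TBG-GFP and at 55.5, 39.5 and 45.4 CPM with AAV8-TBG-Cre. The groups overlapped, and the log2 fold change was -0.13 (SE 0.16, adjusted p = 0.705). Ddx58, which senses RNA ends, was at 38.5, 43.6 and 54.9 CPM against 46.5, 38.9 and 43.8 CPM, also with overlap (log2 fold change -0.08, SE 0.15, adjusted p = 0.791). Dhx58 (LGP2), which lacks the signalling domain of these sensors and modulates both, was at 18.2, 19.3 and 27.5 CPM against 16.6, 13.9 and 15.5 CPM. All 3 AAV8-TBG-Cre livers were below the control livers, and the log2 fold change was -0.50 (SE 0.17, adjusted p = 0.163). Dhx58 was no longer past the unadjusted threshold when AAV8-TBG-GFP replicate 3 was left out (log2 fold change -0.31, adjusted p = 0.268) or AAV8-TBG-Cre replicate 2 was left out (-0.44, adjusted p = 0.392).

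Zbp1, which senses Z-form nucleic acid and can start cell death, was at 11.3, 10.8 and 27.8 CPM with AAV8-TBG-GFP and at 12.1, 15.4 and 13.5 CPM with AAV8-TBG-Cre. The third control liver stood far above the other 5, and the log2 fold change of -0.28 (SE 0.35, adjusted p = 0.698) became 0.29 without it. Eif2ak2 (PKR), the kinase that halts translation on binding double-stranded RNA, was at 18.5, 21.2 and 25.6 CPM against 18.2, 20.5 and 21.0 CPM (log2 fold change -0.13, SE 0.14, adjusted p = 0.655). Adar was at 31.5, 35.6 and 48.2 CPM against 33.9, 37.3 and 47.1 CPM (log2 fold change 0.04, SE 0.19, adjusted p = 0.930). For both genes the ranges of the groups overlapped. Trim25, a ligase that acts with RIG-I, had a log2 fold change of -0.16. Of the 7 genes 6 had negative values, with a median of -0.13, while on log2(FPKM + 1) only Dhx58 was negative and the median was 0.04, below the shift of 0.11 of all genes. All 7 were highest in AAV8-TBG-GFP replicate 3.

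Among the 7 transcription factors 3 were higher at the unadjusted threshold (42.9%, a share of few genes), beside 12% of all genes. The median log2 fold change was 0.32. Irf8, a factor of myeloid and dendritic cells, was at 6.56, 6.63 and 6.65 CPM in the AAV8-TBG-GFP livers and at 9.59, 16.1 and 11.2 CPM in the AAV8-TBG-Cre livers. The control livers were nearly level and all 3 AAV8-TBG-Cre livers were above them, by a log2 fold change of 0.90 (SE 0.20, adjusted p = 0.0757). Irf5, which acts below Toll-like receptors in macrophages, was at 9.91, 12.5 and 9.84 CPM against 19.5, 17.5 and 15.6 CPM. The groups were well apart, with a log2 fold change of 0.70 (SE 0.15, adjusted p = 0.0634). Irf1, a factor induced by interferon-γ, was at 24.0, 27.8 and 19.6 CPM against 28.3, 28.8 and 34.3 CPM. The gap between the groups was small, and the log2 fold change was 0.36 (SE 0.15, adjusted p = 0.228). Irf1 was not past the unadjusted threshold with DESeq2, nor without AAV8-TBG-GFP replicate 1 (0.35), AAV8-TBG-GFP replicate 3 (0.22), AAV8-TBG-Cre replicate 2 (0.39) or AAV8-TBG-Cre replicate 3 (0.26). Irf7, the factor that amplifies type I interferon, had a log2 fold change of 0.32 and overlapping groups. Stat2 and Irf9, which act together on the response element, were at 0.13 and 0.01, and Irf3, which is activated rather than induced, was at -0.01.

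The OAS family senses double-stranded RNA and, through its active members, makes the second messenger that turns on RNase L. Its median log2 fold change of 0.72 was the highest of the 8 groups by role. Past the unadjusted threshold 3 of 5 members were higher (60%), a share of few genes, beside 12% of all genes. Oasl2 was at 8.28, 9.34 and 9.89 CPM against 12.9, 18.7 and 15.9 CPM with AAV8-TBG-Cre, with no overlap (log2 fold change 0.79, SE 0.16, adjusted p = 0.0633). Oas2 was at 6.10, 4.90 and 6.44 CPM against 8.11, 9.61 and 11.6 CPM, again with no overlap (log2 fold change 0.75, SE 0.19, adjusted p = 0.0881). Oas1a was at 5.90, 5.05 and 9.32 CPM against 11.3, 9.45 and 12.8 CPM, where the third control liver nearly reached the lowest AAV8-TBG-Cre liver (log2 fold change 0.72, SE 0.25, adjusted p = 0.158). Oas1a shares sequence with its neighbours, so the estimate can divide fragments between them. It was not past the unadjusted threshold without AAV8-TBG-GFP replicate 1 (0.63), AAV8-TBG-GFP replicate 2 (0.55) or AAV8-TBG-Cre replicate 3 (0.62). Oas3 was at 0.39 and Oasl1 at -0.19, and neither was called.

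Bst2 (tetherin), which holds budding viruses at the cell surface, was at 84.9, 78.9 and 91.8 CPM against 120.3, 100.2 and 110.8 CPM. The groups did not overlap (log2 fold change 0.37, SE 0.12, adjusted p = 0.135), and Bst2 is also a marker of plasmacytoid dendritic cells. Without AAV8-TBG-GFP replicate 2 it was not past the unadjusted threshold (0.32). Ifi27, a small mitochondrial protein, was at 66.0, 67.6 and 84.8 CPM against 107.7, 94.5 and 137.1 CPM. All 3 AAV8-TBG-Cre livers were above the controls (log2 fold change 0.64, SE 0.17, adjusted p = 0.0981). The other members outside the families were not called: Ifi44 was at 0.30, Xaf1 at 0.10, Parp14 at -0.00 and Ifi35 at -0.32.

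**Figure D3:**
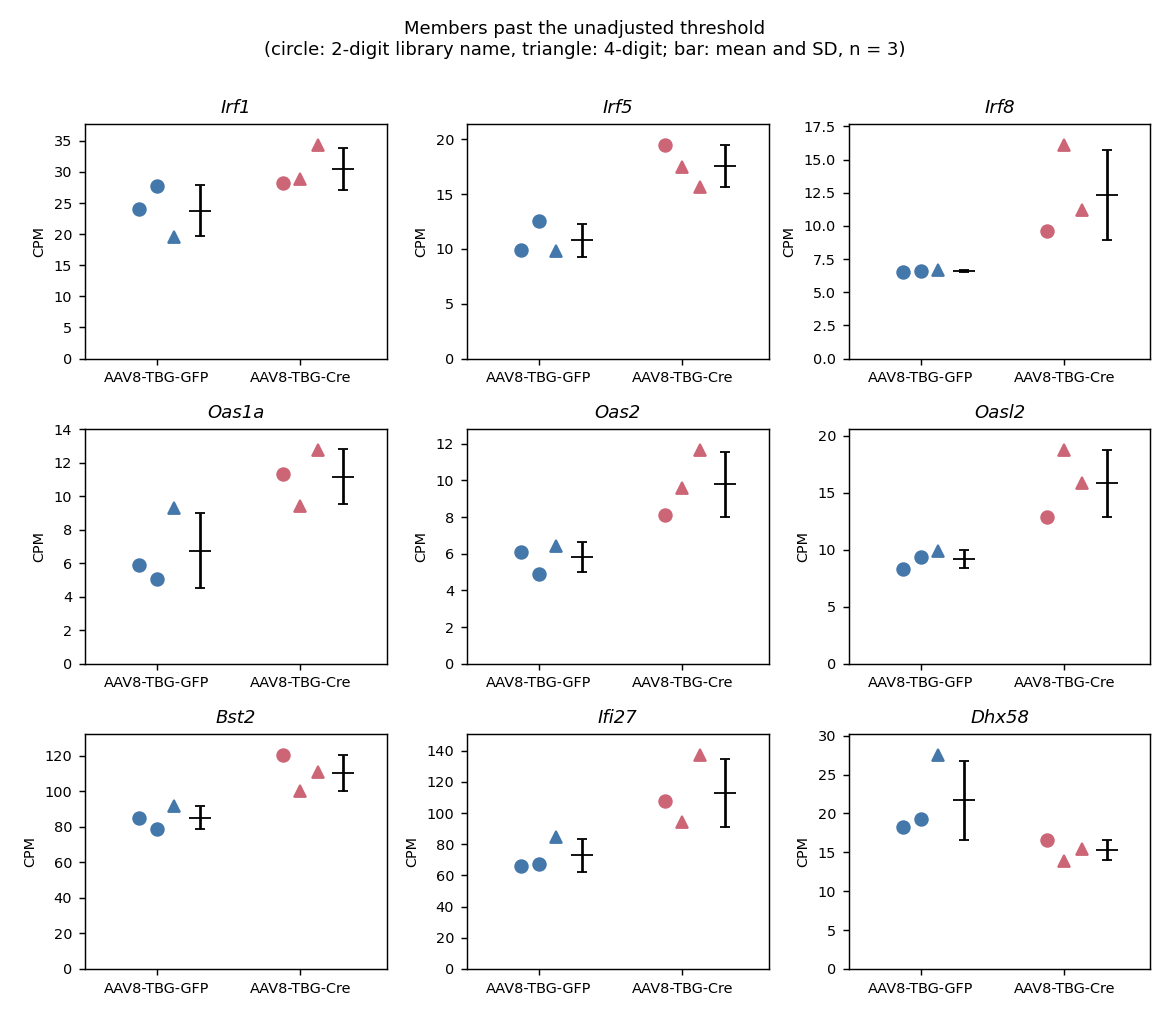
CPM of the 9 members past the unadjusted threshold in each liver, with circles for a 2-digit and triangles for a 4-digit library name and the mean and SD (n = 3) beside each group. In every panel the groups do not overlap, and in Irf8 the control livers lie between 6.56 and 6.65 CPM.

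Markers of several other liver cell types also differed between the groups. Of 11 Kupffer cell and macrophage markers 8 were higher at the unadjusted threshold and 0 lower, beside 12% and 8.41% of all genes. Their median log2 fold change was 0.68. Their summed level ran from 288 to 330.4 CPM with AAV8-TBG-GFP and from 438 to 619 CPM with AAV8-TBG-Cre. It was highest in AAV8-TBG-Cre replicate 2. Irf8 and Oasl2 were also highest there, while Irf5 and Bst2 were highest in replicate 1 and Irf1, Oas1a, Oas2 and Ifi27 in replicate 3 of that group. The 4 plasmacytoid dendritic cell markers other than Bst2 summed to 19.2 to 56.1 CPM against 36.1 to 104 CPM, with overlap. Much of that sum was Ly6d, which ran from 1.38 to 39.3 CPM among the controls (adjusted p = 0.392), while Tcf4 had a log2 fold change of 0.08, Ccr9 was too low to test and Siglech was at 0.356 to 0.471 CPM against 0.525 to 1.56 CPM. Conventional dendritic cell markers summed to 5.84 to 6.99 CPM against 7.11 to 9.78 CPM, and neutrophil markers to 10.1 to 10.6 CPM against 13.98 to 16.8 CPM. B cell markers summed to 1.33 to 1.47 CPM against 1.59 to 3.96 CPM, and T and NK cell markers to 3.56 to 5.92 CPM against 4.19 to 7.06 CPM. Among the defining markers Ncr1, Gzma, Ms4a1 and Retnlg were at 0 in at least 1 liver. Cholangiocyte markers summed to 11.8 to 13.9 CPM against 33.7 to 80.0 CPM, with all 5 higher. Endothelial markers summed to 122 to 188 CPM against 123 to 147 CPM, with all 6 log2 fold changes negative, a median of -0.29 and Stab2 called lower. Stellate cell markers summed to 150.1 to 227 CPM against 182 to 338 CPM, with overlap. Single markers went against the sums of their lists, with log2 fold changes of -0.52 for Ly6g (neutrophils) and -0.83 for Cd4 (T cells), both called lower, and of -0.75 for Marco (macrophages), which was not called. The part of these cells in the values of the members was not tested.

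The IFIT, ISG15 and GTPase groups held none of the called members. Ifit1 and Rsad2, named here after their values were seen, block viral RNA and viral replication. Ifit1 was at 11.3, 19.5 and 38.8 CPM with AAV8-TBG-GFP and at 14.2, 18.6 and 22.0 CPM with AAV8-TBG-Cre (log2 fold change -0.34, SE 0.40, adjusted p = 0.679). Rsad2 was at 11.99, 17.04 and 33.2 CPM against 12.5, 23.2 and 20.2 CPM (log2 fold change -0.15, SE 0.38, adjusted p = 0.855). In both, the control livers spread more widely than the AAV8-TBG-Cre livers and enclosed them. Ifit2 was at 3.10, 6.33 and 4.14 CPM against 5.11, 7.35 and 6.79 CPM, with overlap (log2 fold change 0.51, SE 0.28, adjusted p = 0.359), and passed the unadjusted threshold without AAV8-TBG-GFP replicate 2 (0.83). Ifit3 was at -0.12.

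Isg15, a ubiquitin-like protein and also named after its values were seen, was at 7.27, 9.54 and 16.8 CPM against 10.7, 12.2 and 15.6 CPM (log2 fold change 0.20, SE 0.30, adjusted p = 0.757). Usp18, which removes Isg15 and damps interferon signalling, was at 11.6, 15.2 and 24.7 CPM against 17.3, 20.7 and 32.5 CPM (log2 fold change 0.45, SE 0.32, adjusted p = 0.466). The groups overlapped in both genes. Mx1 was at 1.78, 1.38 and 3.30 CPM against 2.20, 3.70 and 2.65 CPM (log2 fold change 0.41, SE 0.37, adjusted p = 0.581), with overlap. Without AAV8-TBG-GFP replicate 3 Usp18 (0.80) and Mx1 (0.84) were past the unadjusted threshold. Mx2 was at 0.39, Rtp4 at 0.02 and Ifitm3 at -0.01.

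The 7 interferon-inducible GTPases, which attack the vacuoles of intracellular microbes, had negative log2 fold changes in 6 cases and a median of -0.21. Gbp6 had the largest size of change, at 23.3, 25.1 and 44.1 CPM against 13.3, 24.4 and 21.9 CPM. The groups overlapped and it was not called (log2 fold change -0.63, SE 0.30, adjusted p = 0.280). It was past the unadjusted threshold without AAV8-TBG-GFP replicate 1 (-0.80), with DESeq2 and with no filter (both -0.64). The same held once the library name form was in the fit (-0.90). Gbp6 shrank to -0.29 without AAV8-TBG-GFP replicate 3 and to -0.41 without AAV8-TBG-Cre replicate 1. Of the 7 GTPases 6 were highest in AAV8-TBG-GFP replicate 3. Gbp7 was at -0.44, Gbp3 at -0.30, Iigp1 and Irgm1 at -0.21, Igtp at -0.20 and Gbp2 at 0.04. Gbp6 and Gbp10, and Gbp3 and Gbp7, share sequence, so their fragments may be divided between them.

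One control liver set many of these values apart. AAV8-TBG-GFP replicate 3 had the highest CPM of the 6 livers for 22 of 42 members (52.4%), beside 19.9% of all genes tested. In 38 members it was above the mean of the other 2 control livers, by a median log2 ratio of 0.37 beside 0.01 for all genes. AAV8-TBG-GFP replicate 1 was the lowest liver for 19 members (45.2%), beside 12.6% of all genes. Without AAV8-TBG-GFP replicate 3, 11 members were higher and 0 lower at the unadjusted threshold, 30 were positive and the median log2 fold change was 0.22. Shares of all genes were not computed for that fit, so these counts cannot be set against them. Since that liver is named here for its high values in these members, leaving it out raises most fold changes by construction. The rise is therefore no separate result. Irf7, Isg15, Usp18 and Mx1 were among those called then, and Dhx58 and Irf1 were not.

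The form of the library name is tied to that liver, since AAV8-TBG-GFP replicate 3 is the only control with a 4-digit name. Among the controls a difference by name form is therefore the difference of that liver. A fit with the vector and the name form together was added after the data were seen. In it 13 members were higher in libraries with a 4-digit name at the unadjusted threshold and 0 were lower, beside 8.11% and 7.79% of all genes. By adjusted p 2 members were higher, Rsad2 and Gbp6, beside 0.752% of all genes. Rsad2 had a log2 fold change of 1.00 between name forms (SE 0.17, edgeR adjusted p = 0.0439) and Gbp6 one of 0.83 (SE 0.10, adjusted p = 0.0184). Ifit1 followed at 0.94, Zbp1 at 0.80, Mx1 at 0.79, Usp18 at 0.75 and Isg15 at 0.69, and the other 6 were Irgm1, Adar, Stat2, Irf9, Eif2ak2 and Parp14. None of the 8 members that were higher with AAV8-TBG-Cre was among them. A member that moves with the name form spreads widely within the groups, which makes a call in the vector-only fit less likely. The lack of overlap is therefore not a separate result. Over all 42 members 32 were positive with a median of 0.28, beside 52.0% of all genes and a median of 0.01.

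**Figure D4:**
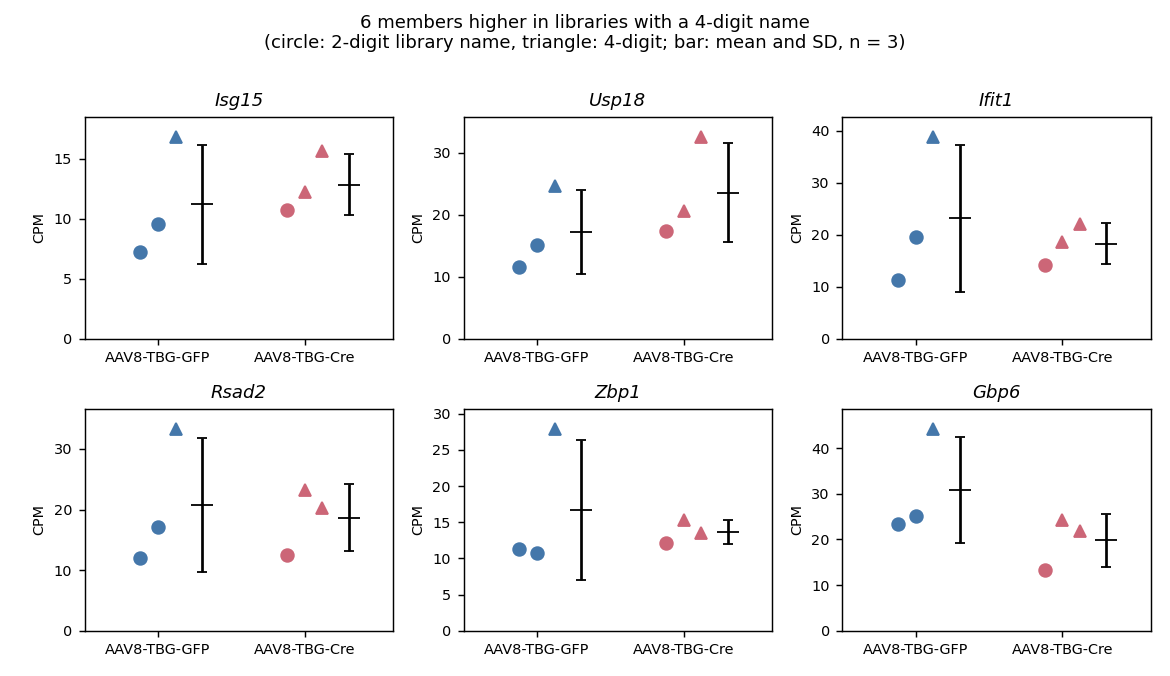
CPM of Isg15, Usp18, Ifit1, Rsad2, Zbp1 and Gbp6 in each liver, with circles for a 2-digit and triangles for a 4-digit library name and the mean and SD (n = 3) beside each group. In every panel the single control triangle, AAV8-TBG-GFP replicate 3, is the highest control liver, and within each vector group the triangles lie above the circles.

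Within a name form the vector could be compared only as values, with 1 or 2 livers on a side. Irf5 had a log2 ratio of 0.79 among the 2-digit names and 0.75 among the 4-digit names, Irf8 of 0.54 and 1.04, Oas2 of 0.56 and 0.72, Oasl2 of 0.55 and 0.81 and Ifi27 of 0.69 and 0.45. Oas1a was at 1.05 and 0.25, Bst2 at 0.55 and 0.20, Irf1 at 0.13 and 0.69 and Dhx58 at -0.18 and -0.90. Since the groups of these 9 members do not overlap, their sign within each form is fixed and says nothing further. Over the 42 members 27 were positive among the 2-digit names, with a median of 0.13 beside 0.002 for all genes. Among the 4-digit names 15 were positive, with a median of -0.19 beside -0.018 for all genes. The only control with a 4-digit name is AAV8-TBG-GFP replicate 3, so an effect of name form cannot be told apart from that liver. With the name form as a covariate Irf5 was higher (log2 fold change 0.77, edgeR adjusted p = 0.0437) and Gbp6 lower (-0.90, adjusted p = 0.0125) with AAV8-TBG-Cre. What the name form stands for was not tested.

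**Figure D5:**
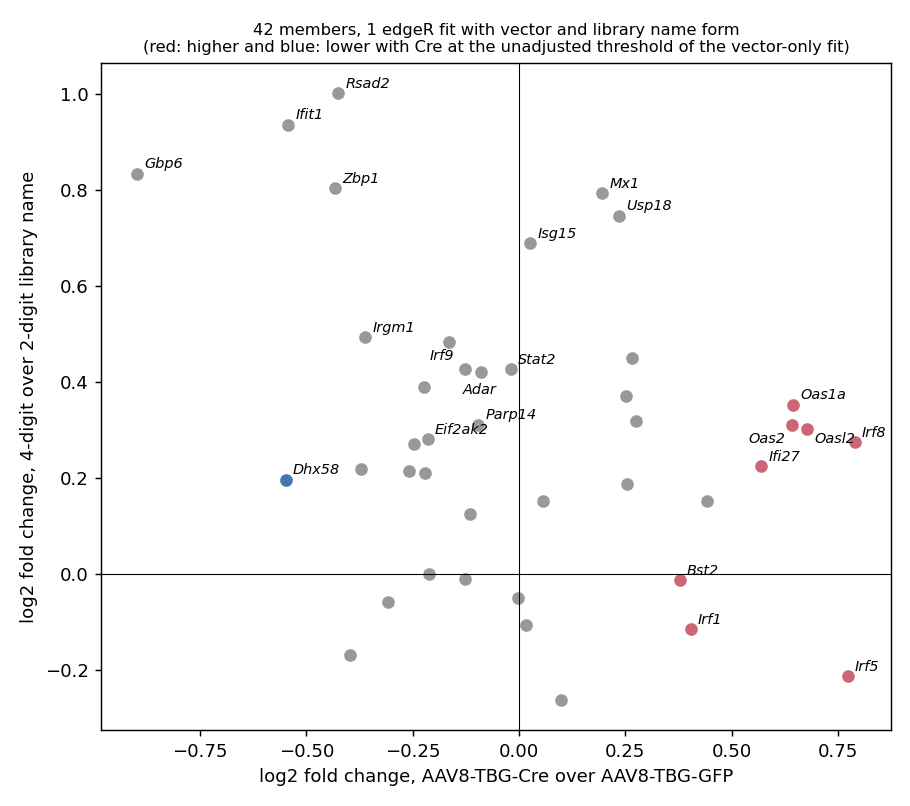
For each member the log2 fold change by vector is plotted against the log2 fold change by library name form, both from 1 edgeR fit with both terms. Rsad2, Ifit1, Gbp6 and Zbp1 lie at the top left, between 0.80 and 1.00 by name form, while Irf5, Irf8, Oas2 and Oasl2 lie at the right.

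Of the promoters, the windows of 8 of the 13 members that were higher in 4-digit libraries were matched, and 6 of 8 held the response element core and 2 of 8 the gamma-activated site. Of the 8 members higher with AAV8-TBG-Cre 6 had a window, of which 2 held the core (Oas1a and Bst2). The gamma-activated site was in 4, namely Oas1a and Bst2 again, Irf1 and Irf8, while Irf5 and Oasl2 held neither. These are counts of few genes with no test.

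The rest of the pathway was read from 124 further genes in 4 lists, of which 107 were tested. Of these 22 (20.6%) were higher and 5 (4.67%) lower at the unadjusted threshold, beside 12% and 8.41% of all genes. Of the 13 interferon genes listed, 8 (Ifnb1, Ifna2, Ifna4, Ifna5, Ifna9, Ifna11, Ifnl2 and Ifnl3) had no row in the tables and were not analysed here. The other 5 had too few counts to test. Ifna1 and Ifne were at 0 in all 6 livers. A count of 0 allows a level of up to 0.123 to 0.157 CPM, depending on the liver (counting error only). Ifnk, Ifnz and Ifng reached at most 3 counts in a liver.

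Of the receptors and signalling genes 3 of 14 (21.4%) were higher, beside 12% of all genes. The interferon-γ receptor chain Ifngr1 was at 15.2, 16.6 and 16.96 CPM against 27.5, 32.7 and 21.4 CPM, with no overlap (log2 fold change 0.74, SE 0.16, adjusted p = 0.0686). Its partner Ifngr2 was at 0.20, and the type I receptor chains Ifnar1 and Ifnar2 were at 0.24 and -0.10. The kinases Jak1 and Tyk2 were at 0.02 and 0.14.

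Of 29 tested adaptors, kinases and nucleic acid sensors 3 were higher (10.3%) and 2 lower (6.90%), shares near those of all genes (12% and 8.41%). Mavs, the adaptor through which Ifih1 and Ddx58 signal, was at 118, 118 and 122 CPM against 107, 108 and 159 CPM (log2 fold change 0.06, adjusted p = 0.863). The endosomal sensors Tlr7 and Tlr9, of single-stranded RNA and of DNA, were higher by log2 fold changes of 1.35 (adjusted p = 0.0815) and 2.20 (adjusted p = 0.0882). Tlr9 reached 2.22 CPM at most.

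Among 64 tested further interferon-stimulated genes 16 were higher (25.0%) and 2 lower (3.12%), beside 12% and 8.41% of all genes. By adjusted p 1 passed in each direction, beside 0.484% and 0.447%. Oas1g, a paralog of Oas1a, was at 1.42, 1.63 and 1.36 CPM against 3.10, 4.48 and 4.52 CPM (log2 fold change 1.45, SE 0.25, edgeR adjusted p = 0.0483). Gbp10, a paralog of Gbp6, was at 19.4, 20.8 and 32.0 CPM against 10.7, 10.8 and 9.82 CPM (log2 fold change -1.20, SE 0.20, edgeR adjusted p = 0.0454). Fragments shared with Oas1a and Gbp6 may be divided differently between these paralogs. Slfn2, Apobec3, Ifi27l2a, Ifi204 and Ifi203 were higher at the unadjusted threshold by 1.36, 1.502, 0.98, 0.76 and 0.60.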

How the data were processed

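RNA-seq was measured in 6 livers, grouped by the vector in the sample titles. For each transcript the authors gave an expected count, deposited as an estimate that divides shared fragments and need not be whole, and FPKM per gene, scaled by transcript length and library size. The submitters' processing notes name HISAT2, Bowtie2, RSEM and mm10, whereas the study's methods name STAR, HTSeq and DESeq2. Selection of mRNA by poly(A) or by rRNA removal is not settled by the labels.

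Expected counts were summed per NCBI gene ID, rounded and tested with the quasi-likelihood test of edgeR 4.0.16 (R 4.3.3), with TMM, filterByExpr, the vector as the only factor and Benjamini-Hochberg adjustment over 13431 genes. Standard errors come from the quasi-F statistic. Alternatives were DESeq2 1.42.0 (the study's tool), RLE and upper quartile factors, no filter, at least 10 counts in every library, a replicate block, the library name form, limma 3.58.1 on log2(FPKM + 1) and log2(FPKM + 0.1) for genes with FPKM of at least 0.5 in 3 libraries and without that filter, a fold of 1.5 and leaving out each liver. The steps were tested on simulated data. All libraries of a group differed beyond sampling noise (smallest chi-square per gene, 24.9). Each library was taken as 1 mouse, which the labels do not state, so p-values measure the spread between these libraries, which may in part be technical. CPM values carry counting error, largest near 1 CPM.

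The members, the pathway and marker lists and the tests were chosen with earlier results of these data known. Per-liver values are given for every called member, for Ifih1, Ddx58, Dhx58, Zbp1, Eif2ak2 and Adar, and for the member with the largest change in each group by role. Of the pathway lists, genes past the adjusted p, the 10 smallest p-values and Ifnar1, Ifnar2, Ifngr1, Ifngr2, Jak1, Tyk2 and Mavs are named, and 1 gene that the rule also names is not reported here. Promoter windows come from RefSeq on GRCm38.p6.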

Additional observations from a re-analysis of the deposited data

How the results depend on the processing

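Irf5, Irf8, Oas2, Oasl2 and Ifi27 were past the unadjusted threshold under all 16 alternative fits, Bst2 under 15, Oas1a under 13, Dhx58 under 11 and Irf1 under 10. The fold of 1.5 is not counted among these fits. At that fold 6 members were higher, with Bst2 and Irf1 no longer called. Members passing the adjusted p numbered 0 in the edgeR fit, 5 with DESeq2, 2 with the name form as a covariate (Irf5 and Gbp6), 1 without a filter (Oasl2) and 0 to 3 when a liver was left out, the 3 being Irf8, Oas2 and Oasl2 without AAV8-TBG-Cre replicate 1. Members lower at the unadjusted threshold numbered 1, but 3 with DESeq2 and without a filter, 5 with the covariate, 2 with the replicate block, 0 in the 3 limma fits and at a fold of 1.5, and 0 to 5 when a liver was left out. They numbered 0 without AAV8-TBG-GFP replicate 3 or AAV8-TBG-Cre replicate 2, 5 without AAV8-TBG-GFP replicate 1 and 3 without AAV8-TBG-Cre replicate 1. The median of the members was -0.0536 with the covariate, 0.0747 with upper quartile factors, 0.16 in limma on log2(FPKM + 1) with and without its filter, 0.18 with a pseudocount of 0.1, and -0.0915 to 0.217 when a liver was left out. FPKM moved the median of all genes by 0.11 and, with a pseudocount of 0.1, by 0.14, and 25 members were above the first of these. Pathway genes called lower numbered 5, but 2 in the limma fits, 3 with upper quartile factors and 2 to 11 when a liver was left out (11 without AAV8-TBG-Cre replicate 1). Shares of all genes called by vector were not computed for the alternatives, except those higher by DESeq2 adjusted p.

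Of 18 named members 13 kept their sign throughout. Adar was at -0.0887 with the covariate and -0.11 to 0.22 when a liver was left out. On log2(FPKM + 1) and log2(FPKM + 0.1), Ddx58 was at 0.0867 and 0.0964, Eif2ak2 at 0.0420 and 0.04998, Ifih1 at 0.0341 and 0.0376 and Zbp1 at 0.0643 and 0.0754. Ddx58 ran from -0.199 to 0.0580 and Zbp1 from -0.52 to 0.29 when a liver was left out. The cause was not tested. The replicate numbers do not pair the livers: the deviations of same-numbered livers correlated at 0.07, -0.29 and 0.24. With the replicate number as a replicate block 9 members were higher, 2 lower and 0 past the adjusted p, with a median of 0.00. Usp18 (0.47), Ifit2 (0.54) and Gbp6 (-0.62) were past the unadjusted threshold in that fit and Irf1 (0.36) was not. With 3 livers a group, genes near 1 CPM such as Siglech are limited by counting error.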
